A study of Mus musculus with 6 samples.

Results

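The genes described here encode the cytosolic extraction machinery of ER-associated degradation (ERAD) and the ER-bound ubiquitin enzymes other than the HRD1 ligase. They were the 9 genes Vcp, Nploc4, Ubxn4, Faf2, Aup1, Ube2j1, Ube2j2, Ube2g2 and Rnf139, found by symbol among the 54532 genes of the deposited table, and all 9 had enough counts to be tested. In mouse cells under ER stress, 7 of the 9 transcripts fell when the cells had first received extracellular vesicles, by 1.13-fold to 1.49-fold, where 24.7% of all 16844 tested genes were called lower. Nploc4 and Rnf139 did not pass the test, and none of the 9 rose.

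In ERAD, misfolded proteins of the endoplasmic reticulum (ER) are ubiquitinated at its membrane by pairs of conjugating enzymes (E2) and ligases (E3). They are then pulled into the cytosol by the hexameric ATPase p97, the product of Vcp, and handed to the proteasome. The heterodimer of NPL4 (Nploc4) and UFD1 binds p97 and the ubiquitin chain, while membrane proteins with a UBX domain bring p97 to the ER. Secretory cells such as the pancreatic beta cell make large amounts of protein in the ER and depend on this clearance.

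The data are bulk RNA-seq of 6 samples that the labels call NIT-1, an insulinoma line of the mouse and a model of the beta cell. Cells of the EV_Tm group (n = 3) were given hucMSC-EVs, the extracellular vesicles released by mesenchymal stem cells from human umbilical cord, for 16 h, and those of the PBS_Tm group (n = 3) were given PBS. Both groups were then exposed for 8 h to Tm, taken here as tunicamycin, which blocks N-linked glycosylation and causes ER stress. A treatment label of PBS_Tm reads as untreated, yet the titles call these samples ERS and the design text gives Tm to both arms, and Tm was taken as given. Since cells without Tm were not analysed here, all differences are between vesicles and PBS under Tm. Whether samples of a group are separate cultures is not in the labels, and p-values therefore cover the spread among these samples alone, which may be technical.

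The libraries held 28654248 to 32550268 counts, and the members had 932 to 16025 counts in each. Defining beta-cell transcripts were almost absent in both groups. Of 18 beta-cell markers, 11 had 0 counts in all libraries, Ins2, Pdx1, Iapp and Nkx6-1 among them, and the summed level of the list was 0.195 to 0.651 CPM (counts scaled to library size) in PBS_Tm and 0.315 to 1.36 in EV_Tm. Where no read was counted, 3 counts set the upper limit (0.0922 to 0.105 CPM by library, counting error alone). Of 19 markers of other cell types, 8 averaged 1 CPM or more, and the summed level of that list, mostly Vim, was 681 to 700 CPM in PBS_Tm and 759 to 812 in EV_Tm, while Cpa1, Prss2, Sst and Krt19 had 0 counts. Of the 8 that could be tested, Vim, Cela1 and Col3a1 rose, and Pdgfrb (6.54 to 2.31 CPM), Col1a1 (3.22 to 1.94) and Pecam1 (28 to 24.8) fell. The part of these markers in the results below was not tested. In bulk RNA, fewer cells of a type and less RNA per cell cannot be told apart.

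The promoters of 3 members are shown, Ube2j1 with one of the larger falls, Vcp with an intermediate one and Nploc4 with none called, since the first pair hold a stress element. Each line gives the 250 bases before the RefSeq start on GRCm38.p6, read 5′ to 3′ along the gene, with the unfolded protein response element (UPRE, TGACGTGG on either strand) in capitals. The Ube2j1 window is chr4:33031130-33031379 on the plus strand, that of Vcp chr4:43000508-43000757 on the minus strand and that of Nploc4 chr11:120437701-120437950 on the minus strand.
Ube2j1: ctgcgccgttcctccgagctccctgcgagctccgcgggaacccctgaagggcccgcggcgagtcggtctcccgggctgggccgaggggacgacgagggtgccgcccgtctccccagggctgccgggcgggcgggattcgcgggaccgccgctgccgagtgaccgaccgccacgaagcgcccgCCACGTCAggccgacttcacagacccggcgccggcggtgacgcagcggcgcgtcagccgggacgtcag
Vcp: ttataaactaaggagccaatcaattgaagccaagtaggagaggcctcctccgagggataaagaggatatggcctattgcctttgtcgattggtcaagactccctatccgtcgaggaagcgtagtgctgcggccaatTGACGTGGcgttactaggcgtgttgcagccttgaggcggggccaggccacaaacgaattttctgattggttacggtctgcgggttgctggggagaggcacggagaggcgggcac
Nploc4: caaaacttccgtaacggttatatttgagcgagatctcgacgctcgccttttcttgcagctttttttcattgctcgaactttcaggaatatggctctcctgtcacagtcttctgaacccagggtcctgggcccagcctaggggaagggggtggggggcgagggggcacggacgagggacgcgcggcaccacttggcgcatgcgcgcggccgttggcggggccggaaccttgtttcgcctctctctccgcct

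The element is bound by factors of the unfolded protein response such as XBP1 and ATF6. Its match began 68 bases before the start in Ube2j1, on the opposite strand, and 114 bases before it in Vcp, and 0.676% of all 32851 promoter windows of 300 bases held a match. The other motifs searched on both strands were the ER stress element (ERSE, CCAAT and CCACG with 9 bases between, in 0.119% of windows), ERSE-II (ATTGG and CCACG with 1 base between, in 0.0365%) and the C/EBP-ATF element (TGATGCAAT, in 0.192%). The letters CCACG are common to ERSE, ERSE-II and the reverse of the UPRE, so these searches can overlap. Of the 6 members with a promoter in the table, 2 held any of the 4 motifs. Ubxn4, Faf2 and Ube2j2, which also fell, held none, and neither did Nploc4. The log2 fold changes of these 3 that fell were -0.57, -0.18 and -0.22, beside -0.54 for Ube2j1 and -0.33 for Vcp. Of 11 such genes of the HRD1 complex 3 held a motif, which were Syvn1 and Derl3 with ERSE and Herpud1 with ERSE-II. Derl3 did not pass the test between groups, while Sel1l, Selenos, Edem1 and Derl2 fell and held none. A match describes letters in a window and does not show binding.

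Levels of tested genes are CPM with the library size scaled by TMM factors, in the order replicate 1, 2 and 3 of each group. Vcp (chromosome 4, 42979963 to 43000507, GRCm38 here and below), which encodes the ATPase itself, was at 483, 525 and 499 CPM in PBS_Tm and at 387, 419 and 392 in EV_Tm. All EV_Tm values lay under all PBS_Tm values, and the fitted EV_Tm level was 79.5% of that in PBS_Tm. The log2 fold change was -0.33 (SE 0.04, adjusted p = 2.99e-07 by edgeR's quasi-likelihood test with Benjamini-Hochberg adjustment). Of the exon bases of Vcp 7.26% are shared with 1700022I11Rik on the opposite strand, which had 7 counts over the PBS_Tm libraries and 39 over those of EV_Tm.

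Nploc4 (chromosome 11, 120380370 to 120437708), the NPL4 subunit of the p97 adaptor, was at 148, 147 and 140 CPM in PBS_Tm and at 141, 146 and 143 in EV_Tm. The groups overlapped, with a log2 fold change of -0.02 (SE 0.04, adjusted p = 0.764 by edgeR). Its obligate partner Ufd1, which is not among the 9, was at 64.7, 69.6 and 69.8 CPM in PBS_Tm and at 42.9, 48.1 and 45.0 in EV_Tm. The groups of Ufd1 were apart, and it fell (log2 fold change -0.58, SE 0.06, adjusted p = 1.13e-08 by edgeR). Ufd1 shares 209 exon bases (4.82% of its exons) with Cdc45 on the opposite strand, a replication gene that also fell (log2 fold change -0.35), and the part of these reads was not tested.

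Ubxn4 and Faf2, the members that encode UBX proteins of the ER membrane, which recruit p97, both fell. Ubxn4 (chromosome 1, 128243964 to 128279378), which encodes erasin, was at 142, 155 and 145 CPM in PBS_Tm and at 101, 96.5 and 99.1 in EV_Tm. Its groups were far apart, with a log2 fold change of -0.57 (SE 0.05, adjusted p = 2.09e-10 by edgeR). Faf2 (chromosome 13, 54621784 to 54664063), which encodes UBXD8, a hairpin protein of the ER and of lipid droplets, was at 111, 115 and 112 CPM in PBS_Tm and at 102, 98.2 and 98.9 in EV_Tm. The groups of Faf2 were also apart, but its level in EV_Tm was still 88.4% of that in PBS_Tm, against 67.2% for Ubxn4 (log2 fold change of Faf2 -0.18, SE 0.05, adjusted p = 0.00206 by edgeR).

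**Figure D1:**
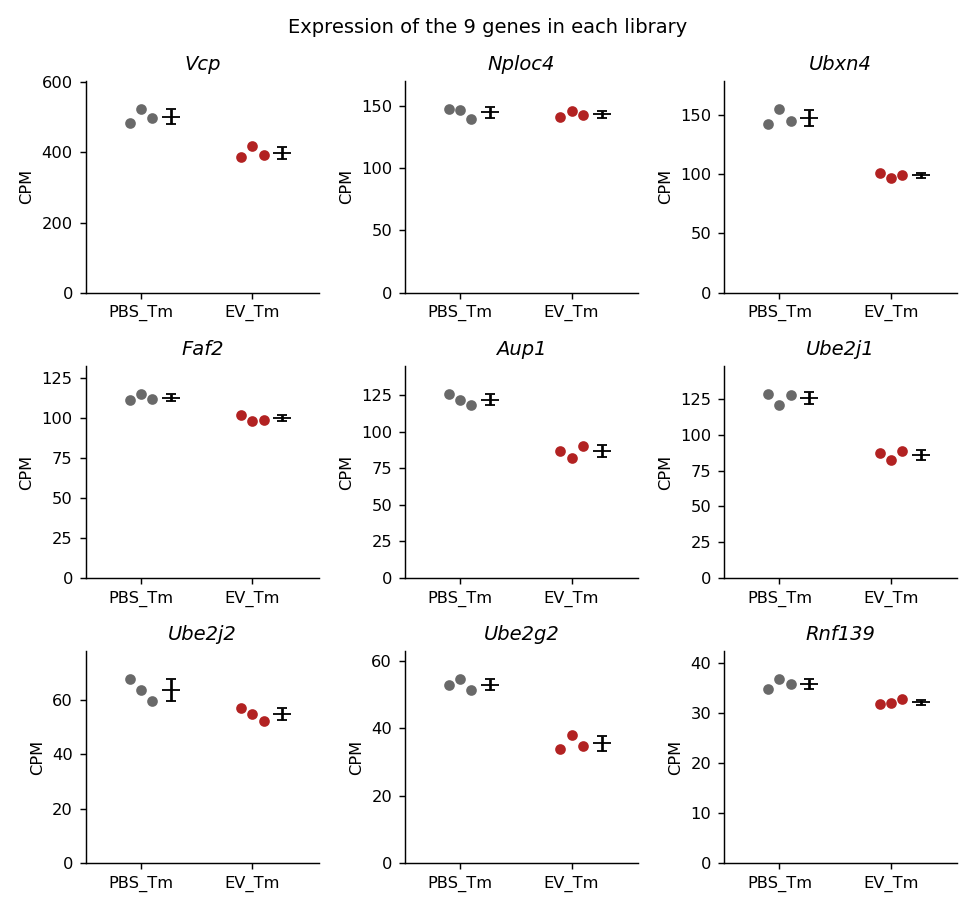
Level of each of the 9 genes in CPM (counts scaled by TMM-adjusted library size) in the 3 PBS_Tm (grey) and 3 EV_Tm (red) libraries, each axis starting at 0, with the mean ± SD in black beside the points. In 8 of the 9 genes, and in 27.9% of all tested genes, all EV_Tm values lie under all PBS_Tm values. Of the 9, only the points of Nploc4 overlap.

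All 3 genes for ER-associated E2 enzymes fell. Ube2j1 (chromosome 4, 33031416 to 33052363), the tail-anchored UBC6e, which works with HRD1, was at 129, 121 and 128 CPM in PBS_Tm and at 87.6, 82.4 and 89.1 in EV_Tm. Its EV_Tm values lay well under those of PBS_Tm, with a log2 fold change of -0.54 (SE 0.05, adjusted p = 1.02e-09 by edgeR). Its tail-anchored paralog Ube2j2 (chromosome 4, 155943831 to 155959604) was at 67.8, 63.8 and 59.8 CPM in PBS_Tm and at 57.1, 55.0 and 52.4 in EV_Tm. The nearest values of its groups, 59.8 and 57.1 CPM, almost met, and the fall was the smallest of the 3 E2 genes (log2 fold change -0.22, SE 0.06, adjusted p = 0.00359 by edgeR).

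Ube2g2 (chromosome 10, 77622275 to 77645993) encodes a soluble E2 that is held at the ER by AUP1. It was at 52.7, 54.6 and 51.4 CPM in PBS_Tm and at 33.8, 37.9 and 34.6 in EV_Tm, and fell to 67.0% of the PBS_Tm level. The log2 fold change was -0.58 (SE 0.06, adjusted p = 4.69e-08 by edgeR), and those of Ubxn4 and Ube2j1 lay within that SE of it. Of these 3 genes Ube2g2 had the largest fitted fall with all libraries, but not without PBS_Tm replicate 1 or EV_Tm replicate 1 or 3, where it was that of Ubxn4 (-0.60, -0.60 and -0.58), nor without PBS_Tm replicate 2, where it was that of Ube2j1 (-0.58). Aup1 (chromosome 6, 83054521 to 83057808), the lipid droplet and ER protein that recruits UBE2G2, was at 126, 122 and 118 CPM in PBS_Tm and at 87.1, 82.3 and 90.4 in EV_Tm. Its groups were apart, and the log2 fold change was -0.50 (SE 0.05, adjusted p = 5.88e-09 by edgeR). Aup1 shares 753 exon bases (23% of its exons) with Htra2 on the opposite strand. Htra2, a mitochondrial protease gene, had a log2 fold change of -0.00 (SE 0.06, adjusted p = 0.961 by edgeR). Of the exon bases of Ube2g2, 10.3% lie in annotated genes that had 0 counts. Nploc4, Ubxn4, Faf2, Ube2j1 and Ube2j2 overlapped no annotated gene.

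Rnf139 (chromosome 15, 58889229 to 58907057) encodes TRC8, a multispanning RING ligase of the ER that has a sterol-sensing domain, and was the only ligase among the 9. It was at 34.9, 36.9 and 35.8 CPM in PBS_Tm and at 31.8, 32.1 and 32.8 in EV_Tm. The groups did not overlap, but the difference did not pass the test (log2 fold change -0.15, SE 0.07, adjusted p = 0.0643 by edgeR). Of its exon bases 26.2% are shared with other genes, 1140 of them with Tatdn1 on the opposite strand, which fell (log2 fold change -0.20, SE 0.07, adjusted p = 0.0287 by edgeR). The part of these reads in the Rnf139 value was not tested.

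Thus 7 of 9 members were called lower, where 24.7% of all 16844 tested genes were called lower (adjusted p under 0.05), and 0 of 9 were called higher, where 22.6% of all genes were. At an unadjusted p under 0.05, 8 members were lower and 0 higher, where 27.2% of all genes were lower and 25.6% higher. DESeq2 also called 7 members lower and 0 higher (24% and 21.9% of all genes), as did limma-voom (24.7% and 22.8%). The groups lay apart with EV_Tm lower in 8 of 9 members and in 27.9% of all tested genes. The median log2 fold change was -0.33 over the members and 0.01 over all tested genes. With a fold change of at least 1.5 required as well, 0 members and 7.44% of all tested genes were called lower.

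**Figure D2:**
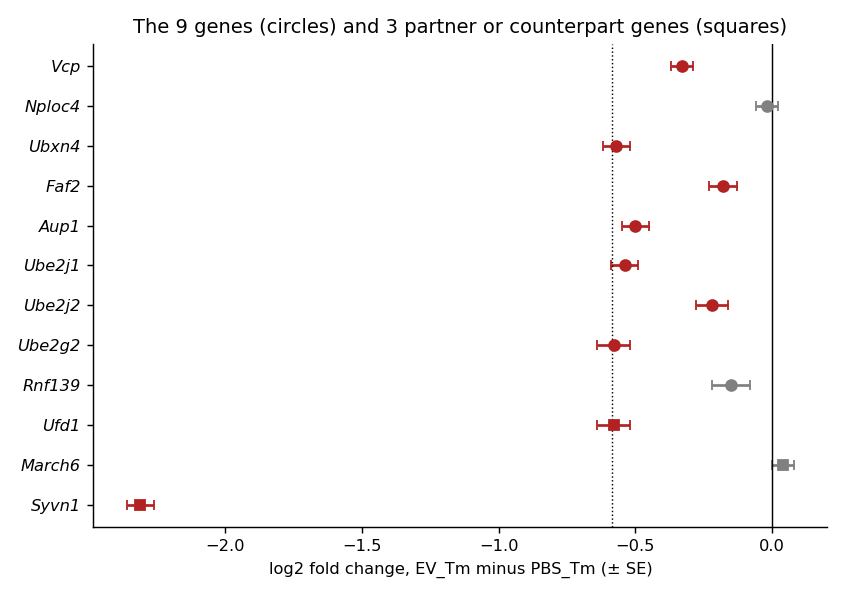
Log2 fold change of EV_Tm minus PBS_Tm with its SE (edgeR) for the 9 genes (circles) and for Ufd1, March6 and Syvn1 (squares), red where the gene fell and grey where it did not pass, with a dotted line at a 1.5-fold fall. The 9 genes lie between -0.58 and -0.02, and Syvn1 lies at -2.31.

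Levels per kilobase divide by a gene length that joins the exons of all annotated transcripts. For Aup1 these were 17, of which 1 was protein-coding. Such levels compare different genes only roughly, and the ranks depend on the lengths used. Per kilobase, Vcp was the most abundant of the 9 in both groups. Its level was 104 ± 4.37 CPM per kb with PBS and 82.3 ± 3.55 with vesicles (SD, n = 3 each), and it made up 35.0% ± 0.995 and 35.8% ± 1.19 of the summed level of all 9. That sum was 294, 302 and 291 CPM per kb in PBS_Tm and 228, 233 and 230 in EV_Tm, so that the groups were apart. Under PBS the order below Vcp was Aup1 (37.3 ± 1.22), Ube2j1 (35.6 ± 1.26), Ubxn4 (31.6 ± 1.42), Nploc4 (30.4 ± 0.878), Ube2g2 (21.8 ± 0.654), Ube2j2 (14.5 ± 0.906), Faf2 (13.8 ± 0.311) and Rnf139 (7.02 ± 0.192, all CPM per kb, SD, n = 3). The neighbours Aup1 and Ube2j1, Ubxn4 and Nploc4, and Ube2j2 and Faf2 overlapped in that order and did not differ beyond their spread.

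Nploc4, at rank 5 under PBS, was at rank 2 with vesicles, at 30.0 ± 0.478 CPM per kb, above Aup1 at 26.4 ± 1.23 (SD, n = 3 each). Nploc4 did not pass the test between groups, while Aup1, Ube2j1 and Ubxn4 fell. Ranks 6 to 9 were held by Ube2g2, Ube2j2, Faf2 and Rnf139 in both groups.

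**Figure D3:**
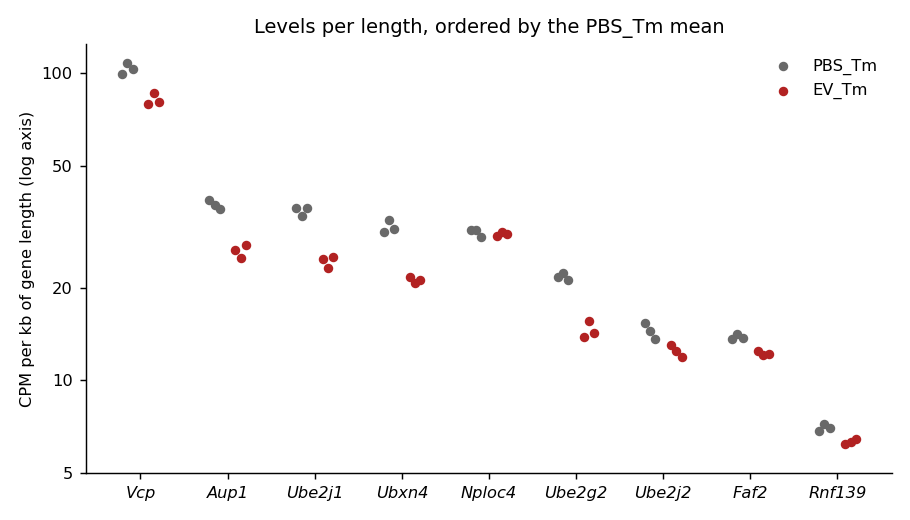
Level of the 9 genes per kilobase of gene length (CPM per kb, log axis) in each PBS_Tm (grey) and EV_Tm (red) library, ordered by the PBS_Tm mean. Vcp lies above all others in both groups, and Nploc4 ranks second in EV_Tm at 30.0 CPM per kb.

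Ratios between transcripts of the same library do not depend on library scaling. They were compared for 8 pairs of enzymes and partners by exact two-sided permutation tests, which with 3 libraries against 3 cannot go below p = 0.1, so no pair could pass. The paralogs Ube2j1 and Ube2j2 had a log2 ratio per length of 1.25, 1.24 and 1.42 in PBS_Tm and of 0.94, 0.90 and 1.09 in EV_Tm. The groups were apart, with a lower ratio in EV_Tm (difference -0.33, exact permutation p = 0.1, adjusted p = 0.133 over 8 pairs).

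Ratios of Vcp and of Ufd1 to Nploc4 were lower in every EV_Tm library than in any PBS_Tm library. The log2 ratio of Vcp to Nploc4 was 1.69, 1.81 and 1.81 in PBS_Tm and 1.43, 1.5 and 1.44 in EV_Tm, and that of Ufd1 to Nploc4 was -1.05, -0.94 and -0.87 against -1.58, -1.46 and -1.52. The differences between the group means were -0.31 and -0.57. The log2 ratio of Faf2 to Ubxn4 was higher in EV_Tm, at -1.19 ± 0.03 under PBS and -0.80 ± 0.01 with vesicles (SD, n = 3 each). For these 3 pairs the exact permutation p was 0.1 each (adjusted p = 0.133).

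Both ratios to Ube2g2 overlapped between the groups with all 6 libraries. The log2 ratio of Aup1 to Ube2g2 was 0.78 ± 0.05 under PBS and 0.86 ± 0.15 with vesicles (SD, n = 3 each, exact permutation p = 0.4, adjusted p = 0.457). Its difference of 0.080 became 0.165, with the groups apart, without EV_Tm replicate 2, and 0.042 and 0.033 without EV_Tm replicates 1 and 3. Ube2j1 to Ube2g2 stood at 0.71 ± 0.09 and 0.75 ± 0.14 (exact permutation p = 0.6, adjusted p = 0.6). Without EV_Tm replicate 2 the groups of this pair were also apart, with a difference of 0.117. It was -0.010 and -0.004 without EV_Tm replicates 1 and 3. With 3 libraries a group, these values do not show that the ratios were equal.

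**Figure D4:**
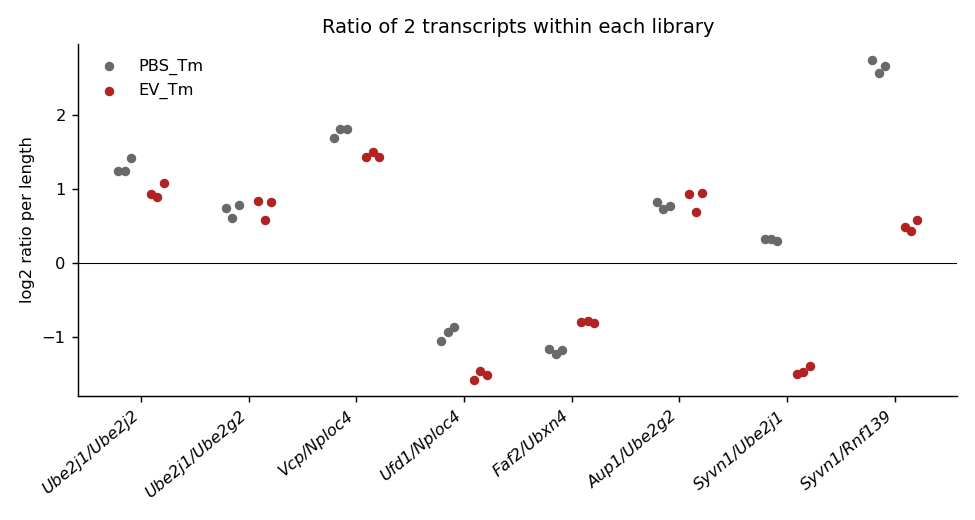
Log2 ratio of 2 transcripts per gene length within each PBS_Tm (grey) and EV_Tm (red) library, for 8 pairs. The groups are apart in 6 pairs and overlap for the 2 pairs that have Ube2g2 as the second gene. Among the 16844 single tested genes, the groups were apart with EV_Tm lower in 4696 and higher in 4481. The share among other gene pairs was not computed.

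Of the counterpart ligases, Syvn1 fell and March6 did not pass. Syvn1, which encodes HRD1, was at 219, 205 and 213 CPM in PBS_Tm and at 41.8, 40.3 and 45.8 in EV_Tm, a level 4.97-fold lower (edgeR adjusted p = 2.21e-21). Per length, Syvn1 stood above its E2 partner Ube2j1 in PBS_Tm, with log2 ratios of 0.33, 0.33 and 0.30, and under it in EV_Tm, at -1.5, -1.47 and -1.39 (exact permutation p = 0.1, adjusted p = 0.133). Against Rnf139 the log2 ratio of Syvn1 was 2.66 ± 0.09 under PBS and 0.50 ± 0.08 with vesicles (SD, n = 3 each), with the same exact permutation p. March6, the ER ligase TEB4 that uses UBE2J2 and UBE2G2, was at 191, 182 and 186 CPM in PBS_Tm and at 198, 187 and 191 in EV_Tm, with overlapping groups (log2 fold change 0.04, SE 0.04, adjusted p = 0.412 by edgeR).

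Among 22 other tested p97 cofactors, 13 fell, Ube4a and Ubxn11 rose and 7 did not pass (median log2 fold change -0.20). Over all tested genes 24.7% were called lower and 22.6% higher, the shares to read beside this and the following lists. Faf1, a soluble UBX protein related to Faf2, was at 118, 125 and 119 CPM in PBS_Tm and at 69.7, 67.2 and 65.1 in EV_Tm, 1.79-fold lower (edgeR adjusted p = 4.38e-13), a larger fall than that fitted for any of the 9. Zfand2b, a proteasome-binding cofactor, fell (log2 fold change -0.59, SE 0.12, adjusted p = 0.000353 by edgeR), and Ubxn11 was 1.89-fold higher where PBS_Tm had only 7.77 ± 1.03 CPM (SD, n = 3). Of 7 tested shuttle and holdase genes, which carry extracted proteins to the proteasome, Rad23b, Ubqln1 and Ubqln4 fell, Bag6 rose and 3 did not pass (median -0.13). Rad23b, which encodes a ubiquitin shuttle, was 1.36-fold lower and Bag6, which encodes a holdase, 1.23-fold higher (edgeR adjusted p = 7.11e-10 and 1.58e-06).

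Of 14 other tested ER ligases, 4 fell (Bfar, Cgrrf1, Rnf185 and Trim13), Rnf145 rose and 9 did not pass (median -0.14). The share called lower, 28.6%, was near the 24.7% of all tested genes, of which 22.6% were called higher. Rnf185, a ligase of ER membrane proteins, was 1.48-fold lower (edgeR adjusted p = 4.10e-08) and Bfar 1.26-fold lower, whereas Rnf145, which like Rnf139 encodes a sterol-responsive ER ligase, went from 144 ± 1.18 to 216 ± 3.82 CPM (SD, n = 3 each, edgeR adjusted p = 1.46e-11). Of 6 ligase partners Erlin1, Rhbdd1, Tmem259 and Ubac2 fell, Erlin2 rose and Tmub1 did not pass (median -0.27). Rhbdd1, the rhomboid protease RHBDL4 that cleaves membrane substrates for p97, had the largest fall of these 6, from 139 ± 2.49 to 62.4 ± 1.98 CPM (SD, n = 3 each, edgeR adjusted p = 5.13e-16). Erlin1 and Ubac2 were 1.39-fold and 1.28-fold lower.

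Of 30 E2 genes outside the ER group, 2 fell (Ube2d3 and Ube2f), 9 rose and 19 did not pass (median 0.02). Of the ER-associated E2 genes 3 of 3 were called lower, where 24.7% of all tested genes were called lower and 22.6% higher. Both lists were chosen with earlier results of these data known, and no test of the difference between them was made. Ube2g1, the closest relative of Ube2g2, had a log2 fold change of -0.04 (SE 0.05, adjusted p = 0.546 by edgeR), and Ube2t, an E2 of DNA repair, was 1.29-fold higher. Ube2v1 was 2.19-fold higher, from only 0.797 ± 0.194 CPM in PBS_Tm (SD, n = 3). Ube2l6 passed (log2 fold change 0.41, SE 0.15, adjusted p = 0.0252 by edgeR), but it did not when PBS_Tm replicate 1 or 3 or EV_Tm replicate 1 or 2 was left out alone (adjusted p 0.0509 to 0.091). Ube2g1 was named after its value was seen.

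On the lumenal and membrane side, 10 of 13 genes of the HRD1 complex fell and 3 did not pass, where 24.7% of all tested genes were called lower. The median was -1.03 on the log2 scale, against -0.33 for the 9. Herpud1, which organises the complex, was 9.67-fold lower and Sel1l, the partner of HRD1, 5.92-fold lower. At the other end of the pathway, of 32 proteasome subunits 11 fell, 6 rose and 15 did not pass (median -0.06). These were 34.4% lower and 18.8% higher, beside 24.7% and 22.6% of all tested genes. Psmc5 and Psmc6, ATPases of the regulatory particle, were 1.31-fold and 1.29-fold lower, and Psma5, of the core particle, was 1.34-fold higher. The median of the 9 genes thus lay between those of the HRD1 complex and the proteasome, a description that was not tested.

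**Figure D5:**
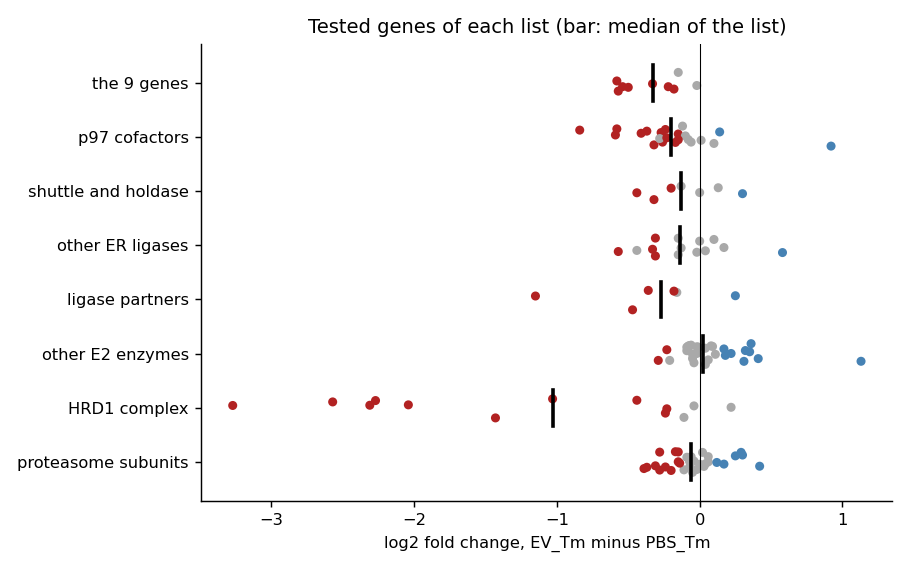
Log2 fold change (EV_Tm minus PBS_Tm) of each tested gene in 8 lists, red where it fell, blue where it rose and grey where it did not pass the test, with a black bar at the median of the list. The 9 genes spread from -0.58 to -0.02, the HRD1 complex reaches -3.27, and the other E2 enzymes centre near 0.

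The genes with the most similar profiles over the 6 libraries, by the root mean square distance of centred log2 CPM, came from outside the fixed lists. For Ube2g2 they were Cfap100, Plekhf2 and Herpud2 (distances 0.021, 0.032 and 0.033 on the log2 scale), and for Vcp they were Pus1, Map3k7 and Yipf4 (0.018, 0.020 and 0.021). Herpud2, a relative of Herpud1, had a log2 fold change of -0.57, far from the -3.27 of Herpud1. That it was close to that of Ube2g2 follows from the choice by profile over the same 6 libraries.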

How the data were processed

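Total RNA of 6 samples was sequenced. Reads were stripped of adaptors and aligned with HISAT2 2.2.1 by the authors, per the labels' protocols, and the submitters' processing notes list featureCounts 2.0.6. The deposited table holds raw, unnormalized counts for each gene and sample. How strand and multi-mapping reads were handled is not given in the sources used here, and genes with overlapping exons are uncertain. Gene coordinates and lengths in the deposited table are other values, in bases. The notes name mm39, but 98.33% of 54495 shared gene IDs had the start and end of GENCODE M21, so coordinates are read as GRCm38. All 27 symbols turned into dates were restored from the gene ID.

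The groups were compared with edgeR 4.0.16 under R 4.3.3 (TMM, filterByExpr, two-sided quasi-likelihood F test, Benjamini-Hochberg over 16844 genes, adjusted p under 0.05). The SE is the absolute log2 fold change divided by the root of F. Mean chi-square per gene was 3.61 to 7.32 within groups and 88.6 to 99.3 between them, so all libraries were kept. Marker levels use the plain library size. Within-library ratios use counts per gene length. Promoters come from a table of RefSeq sequences (GRCm38.p6), in which 6 of the 9 members were matched and Aup1, Ube2g2 and Rnf139 were not.

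The members, lists and motifs were chosen with earlier results of these data known. Named genes are the members, Ufd1, March6 and Syvn1, the 3 largest called changes of each list, and the 3 profiles nearest to Ube2g2 and Vcp among genes whose mean log2 CPM reached 1. The 3 promoters printed and further names among 5 or fewer list members were chosen after values were seen. Some genes are not reported here and were left out of the lists, the pairs and the adjustment over pairs. The test was tried on simulated data with known changes. It called 32% of 1.2-fold and 69.3% of 1.5-fold changes, and 6.26% of its calls were false. Each simulation changed 200 genes drawn at random from the 16844, where 7976 were called in the data, so these shares are not the power for the members. Small changes can be missed, but how often this holds for the members was not measured. Alternatives tried were scaling by library size or DESeq2 size factors, a filter of 1 CPM in 3 libraries or none, limma-voom (limma 3.58.1) and DESeq2 1.42.0 as tests, a replicate block, the omission of single libraries and a 1.5-fold minimum.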

Additional observations from a re-analysis of the deposited data

How the results depend on the processing

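All 9 members kept their call under each of 13 alternative fits, and the 7 that fell kept their direction. Under these the log2 fold change of Vcp lay between -0.37 and -0.29, that of Ube2j2 between -0.27 and -0.17 and that of Faf2 between -0.20 and -0.14. Rnf139 never passed (adjusted p 0.0592 to 0.176), and Nploc4 ranged from -0.05 to 0.02. The count of 7 members lower became 0 with a 1.5-fold minimum, and that of all genes called went from 7976 to 2476. Over all genes, library size alone gave 4307 higher and 3706 lower calls in place of 3808 and 4168, and raised the median log2 fold change from 0.008 to 0.048. Same-numbered libraries did not deviate together (correlations -0.05, 0.02 and -0.02), and not every library correlated best with its own number, so numbers were not taken as pairs. With the replicate number as a block 7737 genes and the same number of members, 7, were called. For the ratios, the paired differences had exact p of 0.25 to 0.5, with 0.25 the smallest that 3 pairs allow. The difference for Ube2j1 to Ube2g2, 0.034, ranged from -0.018 to 0.117 when each library was left out, and was negative without PBS_Tm replicate 2, EV_Tm replicate 1 or EV_Tm replicate 3. The cause was not tested.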
